A study of Drosophila melanogaster with 30 samples.

Results

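The bins described here are the 300-bp bins of the *Drosophila* genome whose MNase accessibility (MACC) was listed as different between S2 cells expressing PH-ML and S2 cells expressing PH-WT. They were chosen by the authors' calls on the difference in MACC between these cell lines, and each carries only its position (genome build dm3) and the cell line with the higher score. The list held 6942 bins, of 7543 different bins on all lists of the series. Of these, 3658 bins had the higher score in PH-ML and 3284 in PH-WT, and they are called PH-ML bins and PH-WT bins below.

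S2 cells are a cultured line derived from *Drosophila* embryos. Both lines compared are stable S2 lines that carry tagged Polyhomeotic (PH) under a metallothionein promoter, and in both lines expression was induced with 0.5 mM CuSO4, followed by 3 days of growth. PH-WT is the wild type protein and PH-ML, named PH-mut in the sample labels, carries changes in the mid-loop of the SAM domain that stop it from polymerizing. The endogenous genes *ph-p* and *ph-d* are present in both lines, each construct is represented by a single stable line, and S2 cells without a construct are the third line of the series. The labels give the same copper treatment for all 3 lines. For each of the 3 lines 10 libraries were made, in 2 experiments with 5 amounts of MNase each, and the lists pool them all. The lowest MNase amount is 1.65 in the labels and 1.5 U in the design text.

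PH is a subunit of Polycomb repressive complex 1, which keeps developmental genes silent, and its SAM domain joins head to tail into polymers that bring distant Polycomb sites together. MACC is the slope of the reads released by MNase against the logarithm of the amount of enzyme, so that a higher score marks chromatin that is easier to digest. *Drosophila* chromosomes end in arrays of retrotransposons, the small chromosome 4 is packed with heterochromatin proteins over most of its length, and the sequences named Het hold assembled parts of pericentric heterochromatin. Sequence U is made of scaffolds with no assigned place, so that neighbours on U need not be neighbours on a chromosome.

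Because the lists have no score, count or p-value, values of a bin in each library cannot be given, nor can the values of bins just inside and just outside the threshold of the calls. The level of PH in the cells cannot be read from these lists either. All values below therefore describe the lists, without a test. Intervals are 95% Wilson intervals, which cover counting error only. Neighbouring bins are not independent of each other, since 1 digested fragment can touch adjacent bins and 1 change in chromatin can cover many of them.

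The chromosome sequences spanned 464488 bins up to the last listed bin of any list. The list of PH-ML against PH-WT took up 1.49% of them, 0.788% as PH-ML bins and 0.707% as PH-WT bins. These shares come from the contrast that chose the bins and are given only as background. The lists against S2 were shorter. The list of PH-ML over S2, named by the line with the higher score first, took up 0.129% of the bins, that of S2 over PH-ML 0.0452%, that of PH-WT over S2 0.0721% and that of S2 over PH-WT 0.233%. The lists against S2 share the PH-ML or PH-WT libraries with the comparison described here, so where they are set beside it below they are not a separate measurement.

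The question this comparison addresses is where in the genome accessibility differs between cells with a polymerizing and a non-polymerizing PH. The directions were nearly even on the 5 large arms 2L, 2R, 3L, 3R and X, with 3020 PH-ML bins and 3015 PH-WT bins. The majority over all sequences turned among the 5506 bins on neither list against S2, of which 2631 (47.8%, 46.5 to 49.1) were PH-ML bins. The lists left out there are longer on the side of PH-ML, with 600 bins in PH-ML over S2 and 1082 in S2 over PH-WT. On the side of PH-WT they hold 210 bins in S2 over PH-ML and 335 in PH-WT over S2. Leaving out their bins thus removes more PH-ML bins, so no direction is read from the turn. Leaving aside the Het sequences and U, listed bins were densest on chromosome 4, at 112 per Mb, followed by 3R at 60.9, 2L at 55.6, 3L at 55.2 and 2R at 48.0 per Mb. The X chromosome was the sparsest of the large arms, at 30.7 bins per Mb. On the Het sequences and U together, 66.4% of 759 bins (63.0 to 69.7) were PH-ML bins, with 26.4 PH-ML bins and 13.4 PH-WT bins per Mb. On the large arms these densities were 25.4 and 25.3 per Mb. All densities are per Mb of sequence up to the last listed bin, and how many bins were scored on each sequence is not given. It therefore cannot be told whether PH-ML bins were more frequent or PH-WT bins less frequent on the Het sequences and U than on the arms. The share of PH-ML bins was 77.8% of 99 bins on 3RHet, 70.7% of 58 bins on 3LHet, 67.4% of 460 bins on U and 54.1% of 109 bins on 2RHet. The other 3 Het sequences had 7 to 15 bins each, too few for a direction to be read.

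The directions were not mixed evenly along the arms. Each arm was divided into 10 equal segments, numbered from its first base. The share of PH-ML bins in a segment ranged from 17.8% of 45 bins, in segment 4 of X, to 79.1% of 91 bins, in segment 10 of X. Shares above 70% were also found in segment 6 of 2L (74.6% of 130 bins), segments 6 and 7 of X (73.2% of 112 and 71.6% of 95 bins), segment 10 of 2L (72.4% of 185 bins) and segment 3 of 3R (70.4% of 213 bins). The lowest shares after segment 4 of X were in segments 3 and 9 of 2R (23.8% of 80 and 25.5% of 102 bins). Segment 3 of 3L (29.2% of 72 bins), segment 10 of 2R (29.2% of 65 bins) and segment 9 of 3L (30.2% of 116 bins) followed. Segment 10 of 2L, 3L and X and segment 1 of 2R and 3R are the segments nearest to the centromere. The share there was 62.1% of 169 bins on 2R, against 42.4% over the arm, and 61.6% of 99 bins on 3L, against 49.3%. On 2L the share over the whole arm was 57.6%, on X it was 55.4%, and on 3R the values were 46.8% of 124 bins in segment 1 and 47.3% over the arm.

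Single windows or clusters carried some of these values, which was examined after they had been seen. Segment 10 of X rested on 1 window of 200 kb, X:21400001-21600000, without which 22 of 39 bins (56.4%) were PH-ML bins, close to the share of the arm. Without their own fullest window the shares nearest to the centromere were 73.7% on 2L, 63.9% on 2R, 62.7% on 3L and 53.6% on 3R. The value of 3R stands for 52 PH-ML bins and 45 PH-WT bins, so the directions were nearly even there. In segment 3 of 3R the share was 62.2% without its fullest window. The fullest segment of 3R was segment 10, at the distal end of the arm, with 250 PH-WT bins among 388. Its direction rested on a single cluster, 3R:25497601-25695600, without which it held 97 PH-WT bins and 102 PH-ML bins. On 2R, segments 9 and 10 held 76 PH-WT bins among 102 and 46 among 65.

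**Figure D1:**
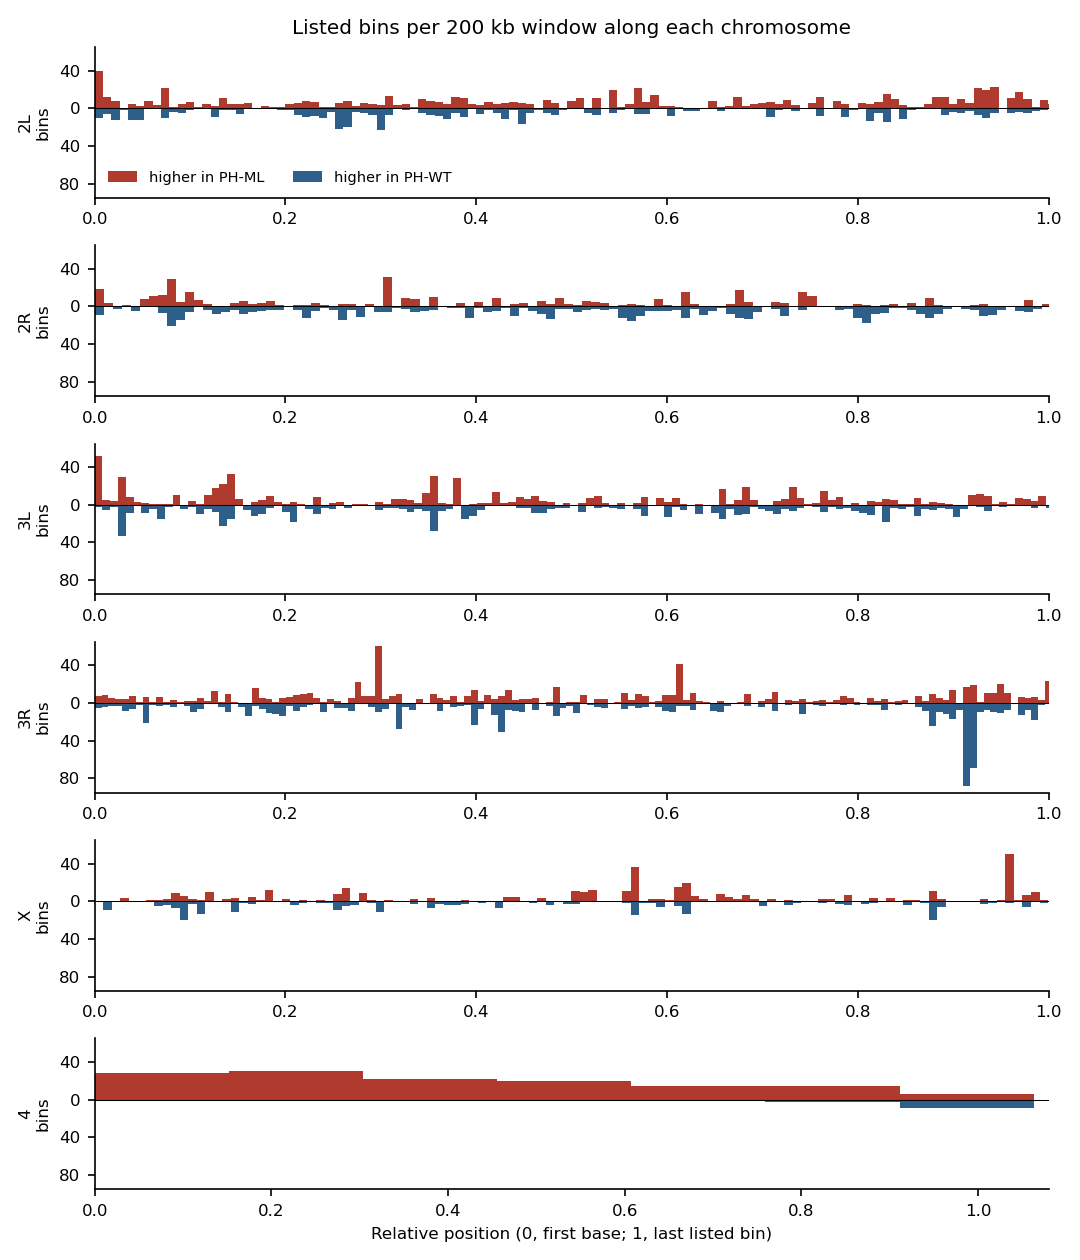
Number of listed bins in each 200 kb window along 2L, 2R, 3L, 3R, X and 4, with PH-ML bins drawn upwards in red and PH-WT bins drawn downwards in blue; the horizontal axis is the position relative to the last listed bin, and the last window can run past 1. The tallest blue bars are the neighbouring windows with 88 and 69 bins near the distal end of 3R, the tallest red bar is the window with 61 bins on 3R, and chromosome 4 is red over most of its length.

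Neighbouring bins on the list mostly had the same direction. Of 6929 pairs of neighbours, 5097 (73.6%, 72.5 to 74.6) had the same direction, against 51.8% that the counts of each direction on each sequence give when their order is not used. The share was similar on the large arms, from 70.7% on 2L to 73.5% on X, where the counts give no more than 51.1%. On chromosome 4 it was 92.5%, but there the counts alone give 82.8%, because 134 of its 148 bins were PH-ML bins.

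This agreement faded with distance. Directly adjacent bins had the same direction in 1778 of 1801 pairs (98.7%, 98.1 to 99.1). The share was 84.3% of 491 pairs when a single unlisted bin lay between the neighbours, 80.6% of 351 pairs at 900 bp, 77.1% of 240 pairs at 1200 bp and 67.9% of 78 pairs at 3000 bp. Neighbours 3 to 10 kb apart shared a direction in 62.0% of 1069 pairs, and neighbours 10 to 30 kb apart in 57.9% of 980 pairs. At 30 to 100 kb the share was 53.9% of 880 pairs (50.6 to 57.1), and beyond 100 kb it was 53.4% of 369 pairs (48.3 to 58.4), and both intervals include the share given by the counts. Only 23 adjacent pairs on all sequences had opposite directions, 6 of them on 2L, 5 on 3R, 3 each on 3L and X, 2 each on 2R and 4 and 1 each on 2RHet and U.

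Looking at all pairs of bins, and not only neighbours, gave the same fall over a longer range. The share with the same direction was 90.1% above 300 bp and up to 1 kb, 82.3% at 1 to 3 kb, 72.2% at 3 to 10 kb and 62.0% at 10 to 30 kb. It was 57.2% at 30 to 100 kb and 55.9% at 100 to 300 kb, where the counts give 51.6% and 52.1%. At 300 to 1000 kb it was 52.2% against 51.6% by the counts, and at 1 to 3 Mb it was 50.6% against 50.9%. The preference for one direction was thus visible below 10 kb on every large arm, and small beyond 300 kb.

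The large arms differed in how far it reached. At 10 to 30 kb the share on 3R was 18.5 percentage points above that given by the counts of the arm, against 7.12 points on 2R, 5.24 on X, 5.03 on 3L and 4.62 on 2L. At 100 to 300 kb 3R stood 7.54 points above the counts, X 4.87, 3L 2.14, 2L 1.49 and 2R 1.28. The long reach on 3R rested on a single cluster of 189 bins, described below. Without it, 3R stood 19.3 points above the counts at 10 to 30 kb, but 2.25 points in place of 9.02 at 30 to 100 kb and 1.09 in place of 7.54 at 100 to 300 kb. The cluster 3R:8290801-8337900, with 59 PH-ML bins in 47.1 kb, was kept there. Its part in the value at 10 to 30 kb was not tested. On X, leaving out the fullest cluster of the arm (49 bins) changed the value at 30 to 100 kb from 10.4 to 9.45 points and that at 100 to 300 kb from 4.87 to 5.27 points. The window X:21400001-21600000, with 50 PH-ML bins among 52, was kept there. How far the reach on X rested on that window was not tested. Leaving out the fullest cluster was decided after these values had been seen.

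**Figure D2:**
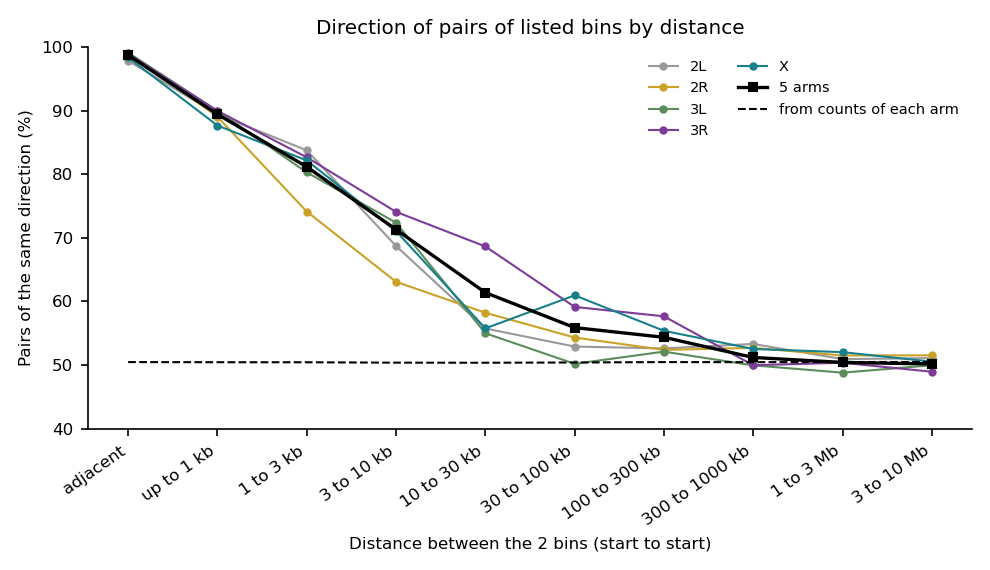
Percentage of all pairs of listed bins with the same direction (vertical axis) in classes of distance between the bins (horizontal axis), for each large arm (coloured lines) and the 5 arms together (black squares); the dashed line is the share given by the direction counts of each arm. All arms start near 98.7% for adjacent bins and approach the dashed line by 300 to 1000 kb, with 3R highest at 10 to 30 kb and X highest at 30 to 100 kb.

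Listed bins were crowded rather than evenly spaced. The median distance between neighbours, from start to start, was 2700 bp, with quartiles of 300 and 18000 bp and a maximum of 802.5 kb. The median was 6900 bp with adjacent bins of one direction counted once, and 4800 bp among bins on neither list against S2. Bins of the same direction lay closer together, with a median of 1200 bp between neighbours of one direction and of 12600 bp where the direction switched. The median distance was 900 bp between neighbouring PH-ML bins and 1500 bp between neighbouring PH-WT bins. From a PH-ML bin, the median distance to the nearest bin of its own direction was 0.6 kb, against 20.4 kb to the nearest PH-WT bin. From a PH-WT bin these distances were 0.9 and 15.3 kb. Within 1 kb, 56.7% of the PH-ML bins and 51.3% of the PH-WT bins had a bin of their own direction, while 4.95% and 5.88% had one of the other.

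The sparse X chromosome combined the shortest spacing with the widest gaps. Its median spacing was 1500 bp, against 2400 bp on 3R, 2700 bp on 3L, 3300 bp on 2L and 4200 bp on 2R. At the same time 27 gaps on X were longer than 200 kb, against 6 to 11 on each of the other large arms. The widest, X:20122801-20925000, ran over 802.2 kb and held no bin of the lists against S2 either. The widest gaps of the other arms were 478.8 kb on 2L, 404.7 kb on 3L, 366.3 kb on 3R and 296.7 kb on 2R. On chromosome 4 no gap was longer than 71.4 kb. Whether such gaps lack a difference or lack mappable reads cannot be told apart from the lists, which do not give the bins that were scored.

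Runs of directly adjacent bins were short in both directions. Among 2632 PH-ML runs 2009 were single bins, as were 2016 of the 2532 PH-WT runs. Runs of 10 or more bins, which cover at least 3 kb without a break, numbered 10 for PH-ML and 1 for PH-WT. Of those 10 runs 7 were on 3R and 1 each on 2L, 3L and X, whereas the PH-WT run lay on 2RHet (2RHet:686701-689700). On the large arms the longest PH-WT runs had 8 bins, on 3L (3L:22094401-22096800) and on X (X:2013001-2015400), and the longest on 3R, 2R and 2L had 7, 6 and 5 bins. The longest PH-ML runs on 2L (2L:301-5100) and 3R (3R:17122501-17127300) had 16 bins each, that on 3L (3L:9374701-9378900) had 14 and that on X (X:11698201-11701200) had 10. On 2R the longest PH-ML run had 4 bins, fewer than the longest PH-WT run of the same arm. On chromosome 4 the longest run had 4 bins for PH-ML and 3 for PH-WT.

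The lists against S2 differed between these long runs. As background, 5506 of all 6942 listed bins were on neither list against S2, among them 2631 of the 3658 PH-ML bins. All 16 bins of the 2L run were also on the list PH-ML over S2, 1 was on that of PH-WT over S2, and none on that of S2 over PH-WT. Of the 16 bins of the 3R run, 12 were on the list PH-ML over S2 and 8 on that of S2 over PH-WT. In the 3L run of 14 bins these counts were 9 and 7, and in the X run of 10 bins 7 and 0. The PH-WT run of 8 bins on X had all 8 on the list PH-WT over S2 and 1 on that of PH-ML over S2. The PH-WT run on 3L had none on the list PH-WT over S2 and 2 on the list S2 over PH-ML. The 4-bin PH-ML run and the 6-bin PH-WT run of 2R had no bin on any list against S2. A listed difference between PH-ML and PH-WT was thus accompanied by a listed difference of either line from S2, of both, or of neither.

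Reading the list along each sequence and counting consecutive bins of one direction, whatever the distance between them, gave 1845 one-direction stretches, 924 for PH-ML and 921 for PH-WT. A stretch ends only where a listed bin of the other direction follows. The median stretch had 2 bins in either direction. Stretches of 10 or more bins numbered 80 for PH-ML and 67 for PH-WT, and held 36.1% of the PH-ML bins and 29.2% of the PH-WT bins. The long PH-ML stretches were more compact, with a median length of 95.1 kb against 168 kb for PH-WT. Stretches of 20 or more bins numbered 15 for PH-ML, with 13.9% of its bins, and 8 for PH-WT, with 5.69% of its bins.

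**Figure D3:**
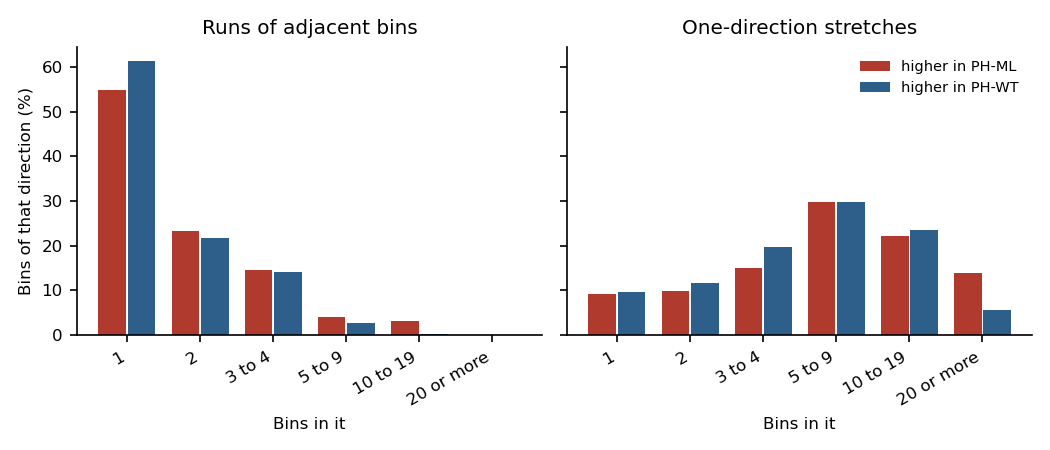
Percentage of the bins of each direction (vertical axis) that lay in runs of directly adjacent bins (left) and in one-direction stretches (right) of each size (horizontal axis); red, higher in PH-ML, and blue, higher in PH-WT. Single bins make up 54.9% and 61.4% of the bins in runs but 9.27% and 9.68% of the bins in stretches, and stretches of 20 or more bins hold 13.9% of the PH-ML bins and 5.69% of the PH-WT bins.

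The PH-ML stretch with most bins was 4:110401-691800, with 78 bins over 581.4 kb. Only 4.02% of its 300-bp bins were listed, 7 bins in it were on the list PH-ML over S2 and 3 on that of S2 over PH-WT. It lies on a chromosome where 90.5% of all listed bins (84.7 to 94.3) were PH-ML bins. The next, 3R:8290801-8337900, had 59 bins in 47.1 kb, 37.6% of all bins there. In this stretch 33 bins were on the list PH-ML over S2 and 30 on that of S2 over PH-WT, with none in the opposite directions. For stretches, clusters and windows, counts on the lists against S2 take every bin within the bounds, also bins not listed between PH-ML and PH-WT. The stretch 3L:301-104700 had 48 bins, of which 46 lay in its first 19.5 kb at the distal end of the arm. A further stretch of 36 bins, 3R:17121601-17142300, covered 20.7 kb with 52.2% of its bins listed, and 43 bins formed a stretch on U (U:4925101-5305800).

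The PH-WT stretches with most bins had fewer bins than these. The fullest, 3R:25620601-25639800 with 28 bins in 19.2 kb and 3R:25542001-25558500 with 27 bins in 16.5 kb, belonged to 1 cluster near the distal end of 3R, and in them 43.8% and 49.1% of all bins were listed. The stretch 3R:25168201-25512000, with 23 bins over 343.8 kb, ran into the same cluster. The stretches 3L:9395101-9707700 and 3L:4902901-5133300, with 24 and 23 bins over 312.6 and 230.4 kb, were sparse, with 2.30% and 2.99% of their bins listed. Of the 5 PH-WT stretches, none had more than 10 bins on the list S2 over PH-ML or more than 6 on the list PH-WT over S2. Both maxima were in 3R:25542001-25558500, the stretch of 27 bins. These lists hold only 210 and 335 bins, against 600 in PH-ML over S2 and 1082 in S2 over PH-WT. The counts are therefore not comparable with those of the PH-ML stretches.

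Joining neighbours no more than 10 kb apart, whatever their direction, gave 2242 clusters. Of these 1061 were single bins, 452 of them PH-ML bins and 609 PH-WT bins. Clusters of 5 or more bins numbered 398 and held 54.8% of all listed bins (53.6 to 55.9). This share depended on the definition: it was 32.8% with a gap of 3 kb and 36.1% with adjacent bins of one direction counted once. The share of bins in such clusters was 61.1% on X, 58.6% on 3R, 58.2% on 2L, 53.8% on 3L and 44.0% on 2R. On chromosome 4 it was 62.2%. The sparse X was thus no less clustered than the fuller arms.

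Clusters of one direction became rarer with size, from 47.8% with 5 to 9 bins to 31.6% with 10 to 19 and 28.6% with 20 or more. A fall is built into this measure, since each further bin can bring in the other direction. No share given by the counts is set beside it. Of the 301 clusters with 5 to 9 bins, 91 held only PH-ML bins and 53 only PH-WT bins. Of the 76 clusters with 10 to 19 bins these numbers were 20 and 4. Of the 21 clusters with 20 or more bins, 6 were of PH-ML bins only, none was of PH-WT bins only and 15 were mixed. Over all clusters of 5 or more bins 43.7% (38.9 to 48.6) had one direction, with 117 for PH-ML and 57 for PH-WT. With neighbours joined up to 30 kb 27.4% had one direction. The excess of PH-ML clusters was seen on 2L (27 against 10), X (17 against 6), 3R (17 against 12) and 3L (15 against 10), but on 2R 11 clusters were of PH-ML bins only and 14 of PH-WT bins only. Part of it came from outside the large arms, with 13 against 1 on U and 7 against 0 on chromosome 4. On 2L and X PH-ML bins were also the majority of all listed bins (57.6% and 55.4%). In the 224 mixed clusters of 5 or more bins the commoner direction had a median share of 77.8%, and 73.7% of the neighbours within them had the same direction.

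The cluster with most bins was 3R:25497601-25695600, with 189 bins over 198 kb, 153 PH-WT bins and 36 PH-ML bins. In this region 28.6% of all 300-bp bins were listed. The direction switched 30 times along it. Its first 63.0 kb, up to the end of a PH-ML bin at 25560600, consisted of 60 PH-WT bins interrupted by 7 PH-ML bins that stood alone or in a pair. A stretch of 21 PH-WT bins came before, and stretches of 28 and 18 PH-WT bins after, a middle portion from 25579201 to 25620000 in which groups of 4 to 6 PH-ML bins alternated with groups of 1 to 4 PH-WT bins. In the region 33 bins were on the list S2 over PH-ML and 3 in the opposite direction, and 25 bins were on the list PH-WT over S2 and 9 in the opposite direction.

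The other large clusters fell into 2 kinds. Those of one direction were compact: 3R:8290801-8337900 with 59 PH-ML bins, described above, 3L:301-19800 with 46 PH-ML bins and U:5281801-5305800 with 37 PH-ML bins. In the 3L cluster 70.8% of the bins were listed. Within its bounds 46 bins were on the list PH-ML over S2, and none was on a list of PH-WT against S2. In the mixed clusters the direction switched several times, and some of the stretches within them were long. In 3L:606301-669300, with 26 PH-ML bins and 28 PH-WT bins, the direction switched 12 times, and a stretch of 15 PH-ML bins (3L:625201-635100) and one of 15 PH-WT bins (3L:652201-669300) lay in its middle and at its end. The cluster 3R:8808601-8878500 held 28 PH-WT bins and 8 PH-ML bins, with 19 of the PH-WT bins in one stretch of 33.9 kb.

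Some large clusters not covered by the rule for named regions were added after their values were seen. The second in size, 2R:1581001-1649100, had 36 PH-ML bins and 25 PH-WT bins with 21 switches over 68.1 kb, and its longest stretch had 11 PH-ML bins. In 3L:8665801-8742300, with 28 and 26 bins, small groups alternated over the first part and 10 PH-ML bins were then followed by 15 PH-WT bins in 20.7 kb. In X:12605701-12666600 and 3L:3368101-3437700 PH-ML bins prevailed, with 36 of 49 and 33 of 48 bins, and the direction switched 17 and 12 times.

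**Figure D4:**
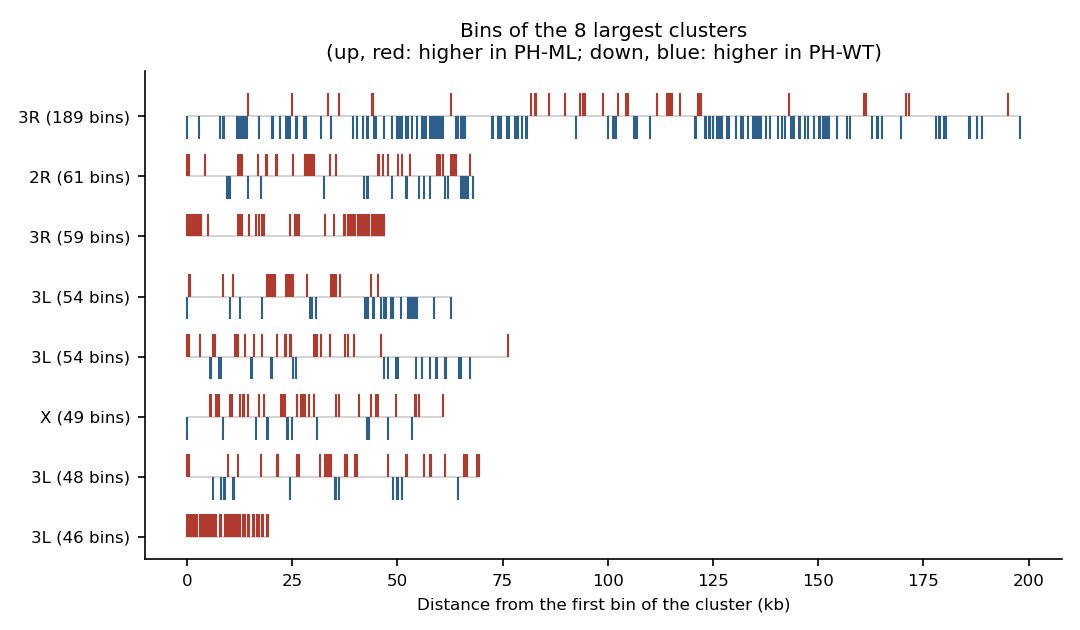
Position of every listed bin in the 8 clusters with most bins, as the distance in kb from the first bin of the cluster (horizontal axis); each row is a cluster named by its chromosome and number of bins, with PH-ML bins drawn upwards in red and PH-WT bins downwards in blue. The clusters of 59 bins on 3R and 46 bins on 3L are red throughout, the cluster of 189 bins on 3R is mostly blue with a mixed middle part, and the other 5 alternate between the directions.

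In fixed windows of 200 kb both directions were the rule. Of 704 windows 665 held a listed bin and 483 held bins of both directions, while 72 held only PH-ML bins and 110 only PH-WT bins, and 159 of these 182 windows had fewer than 10 bins. Among the 273 windows with 10 or more bins, PH-ML bins made up at least 90% in 41 and PH-WT bins at least 90% in 18, together 21.6% (17.1 to 26.9). On the 5 large arms the numbers were 27 and 18, so 14 of the 41 PH-ML windows lay on chromosome 4, the Het sequences and U. With adjacent bins of one direction counted once 11.3% of windows were of this kind, and among 500 kb windows 8.82%. A further 52 of these windows were balanced, with 40 to 60% of bins in one direction. The windows of nearly one direction were 9 of 23 on X (39.1%, 22.2 to 59.2), 12 of 50 on 3L, 11 of 67 on 3R, 6 of 41 on 2R and 7 of 57 on 2L (12.3%, 6.08 to 23.2). On chromosome 4 they were 5 of 7, all for PH-ML. Where 2 neighbouring windows both had 10 or more bins, the same direction prevailed in 68 of 108 cases.

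The windows with most PH-ML bins were the one that holds the 59-bin stretch on 3R (3R:8200001-8400000), with 61 of its 70 bins, the distal window of 3L (3L:1-200000), with 52 of 54, and X:21400001-21600000 near the centromere of X, with 50 of 52. In the X window 34 bins were on the list S2 over PH-WT and 6 on that of PH-ML over S2, whereas in the 3L window these counts were 0 and 46. The windows with most PH-WT bins were 3R:25400001-25600000, with 88 of 105, and 3R:25600001-25800000, with 69 of 88, which divide the 189-bin cluster between them, and 3L:600001-800000, with 33 of 63. The last of these was balanced, with 30 PH-ML bins, so that outside distal 3R the fullest PH-WT window was also a full PH-ML window.

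Chromosome 4 was mostly of one direction. All but 14 of its 148 bins were PH-ML bins, and the first 6 of its 7 windows were mostly PH-ML. Of the 14 PH-WT bins, 12 lay at or beyond position 1041901, towards the end of the listed span, and the last of 10 equal segments of the chromosome held 9 PH-WT bins and 6 PH-ML bins. The remaining 2 lay at 104401 and 692701, on either side of the 78-bin stretch. The spacing of its bins, with a median of 2100 bp, was within the range of the large arms.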

How the data were processed

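MNase-titration-seq libraries of S2 cells and S2 cells expressing PH-WT or PH-ML were made and processed by the authors. After mapping to dm3 with Bowtie, every 300-bp bin received a MACC score, which is the slope of its depth-scaled reads over the 5 MNase amounts with the effect of GC content taken out. The deposited lists hold only bins that the authors called different, without a score. The test, the threshold and the number of bins scored are not given in the sources used here. Depth per library is unknown.

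Here 8 lists were read with Python 3.11.15, pandas 2.3.3, numpy 2.4.6 and scipy 1.17.1, and drawn with matplotlib 3.10.9. The direction was taken from the list holding both, and the separate list of bins higher in PH-WT was identical to it. Distances are from start to start. Clusters join neighbours within 10 kb, windows are 200 kb wide and count as full with 10 bins, and nearly one direction means at least 90%. A bin belongs to the window that holds its start. The share given by direction counts is that of all pairs on the same sequence. The counting was tested on simulated data. Regions named are, for each direction, the 5 stretches, 3 clusters and 3 windows with most bins, and the longest run on each chromosome. The members, lists and alternatives were chosen with earlier results of these data known. No gene or sequence was assigned to a bin, since the reference used here is of a later release than dm3.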

Additional observations from a re-analysis of the deposited data

How the results depend on the processing

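Of 50 recomputed values 34 lay outside the 95% interval of the reported value. With adjacent bins of one direction counted once, 51.0% were higher in PH-ML, 64.4% of neighbours and 54.2% of pairs 100 to 300 kb apart had the same direction, the median distance was 6900 bp, 36.1% lay in clusters of 5 or more, 30.7% of these clusters and 11.3% of full windows had one direction, and 17.1% lay in stretches of 10 or more. On the large arms alone these were 50.04% higher in PH-ML, 72.5% of neighbours, 54.4% of pairs and 31.4% in long stretches. With bins on neither list against S2 they were 47.8%, now a minority of PH-ML bins, 69.4% of neighbours, 55.4% of pairs, 4800 bp, 42.1% in clusters, 22.2% in long stretches and 14.4% of full windows. For these pairs the counts give 51.9% with adjacent bins counted once and 52.5% with bins on neither list. On the large arms the excess over the counts did not fall. It was 21.9 percentage points for neighbours, against 21.7 on all sequences, and 3.90 for pairs, against 3.79. Without the fullest window of each chromosome the median distance was 3000 bp, with 52.3% in clusters, 30.5% in long stretches and 53.4% of pairs alike (51.4% by the counts). Without the 189-bin cluster, an alternative chosen after seeing the data, 54.1% of these pairs were alike (52.2% by the counts), where the reported values are 55.9% and 52.1%. A gap of 3 or 30 kb put 32.8% or 77.3% of bins in clusters, of which 59.8% or 27.4% had one direction. Neighbours over 300 bp or over 10 kb apart were alike in 64.7% and 55.5% of pairs, and all pairs 30 to 100 or 300 to 1000 kb apart in 57.2% and 52.2%. Allowing a single bin of the other direction put 53.8% in long stretches, and 8.82% of full 500 kb windows had one direction. No paired analysis was possible because the lists pool both experiments, and for the same reason no replicate could be left out. How small a difference the lists could detect is unknown without depth.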
